A study of Mus musculus with 28 samples.

Results

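Brg1, the ATPase that powers BAF chromatin-remodeling complexes, bound 590 distal regions of day 4 mesodermal cultures that lay outside acetylated enhancers. These 590 regions are the subject here, out of 2390 Brg1-bound regions in all. They were chosen by 2 measured criteria. A region had to be listed in at least 2 of 3 anti-FLAG ChIP-seq replicates with its nearest edge more than 2.5 kb from any annotated transcription start site (TSS), which left 1810 distal regions. It also had to share no base with a distal region of histone H3 lysine 27 acetylation (H3K27ac) called in both control replicates. The other 1220 distal Brg1 regions overlapped such an enhancer, of which there were 13914. Because the FLAG and control H3K27ac lists chose the regions, what those lists show at the regions is given as description and without a test.

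All samples were mouse embryonic stem cells (ESCs) labelled Brg1f/f; Actin-CreER, differentiated as embryoid bodies and exposed to VEGF, Activin A and BMP4 for 40 h up to day 4. Both Brg1 alleles of this line are floxed, and an Actin promoter drives Cre fused to an estrogen receptor. From day 2, control cultures received the solvent tetrahydrofuran (THF) alone and the others received 200 nM 4-hydroxytamoxifen (4-OHT) in THF, which activates Cre and deletes Brg1, and the amount of Brg1 protein left at day 4 is not measured in these files. Lists of enriched regions were available for H3K27ac in 2 control and 2 4-OHT replicates, for H3K27 trimethylation (H3K27me3) in 3 and 3, for the Polycomb subunit Suz12 in 2 and 2, and for FLAG in 3 replicates with normal Brg1 levels. The study's methods give the FLAG experiment as ESCs with a FLAG tag on the endogenous Brg1 protein, whereas the labels give the floxed line for every sample. Those methods also describe FLAG ChIP-seq in duplicate and the labels in triplicate, and all 3 deposited lists were used here. The labels describe the replicates as biological. The lists hold positions only, so read depth is unknown, and the number of regions in a list stands beside each result that it touches.

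BAF complexes slide or evict nucleosomes and are found at promoters and at enhancers, where H3K27ac is the usual mark of activity. H3K27me3 is placed on the same lysine by Polycomb repressive complex 2, of which Suz12 is a core subunit, and covers silent developmental regulators in ESCs and their early derivatives. One histone tail cannot carry acetylation and trimethylation of this lysine together. A Brg1 region without H3K27ac could therefore lie in chromatin under Polycomb, in chromatin with acetylation too weak to be listed, or in chromatin with neither mark. The lists at hand show overlap with H3K27me3 and Suz12, but hold positions only and cannot tell weak acetylation from none.

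The central sequences of 6 regions are shown because each stands for one of the chromatin settings described below. All are from the plus strand of mm9, 5′ to 3′. Capitals mark matches, on either strand, to the E-box letters CAGCTG or CACCTG, which bHLH factors such as Mesp1 and Snail-type zinc fingers can recognise, or to the letters CAGCAGG of Zic factors, and the Lhx1 and Prdm8 sequences hold none. The first 2 have no H3K27ac in any list, the next 3 are overlapped by H3K27me3, and the last lies inside an acetylated domain that reaches a promoter.
Pax3, chr1:78137513-78137712, centre of the widest region: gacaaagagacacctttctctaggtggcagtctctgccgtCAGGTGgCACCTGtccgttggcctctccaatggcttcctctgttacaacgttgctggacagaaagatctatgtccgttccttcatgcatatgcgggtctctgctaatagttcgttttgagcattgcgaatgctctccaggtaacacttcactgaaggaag
Itln1, chr1:173470663-173470862, listed in all 3 FLAG replicates: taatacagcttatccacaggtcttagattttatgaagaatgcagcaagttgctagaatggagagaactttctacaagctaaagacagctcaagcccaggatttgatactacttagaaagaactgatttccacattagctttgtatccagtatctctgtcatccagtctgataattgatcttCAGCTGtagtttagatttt
Lhx1, chr11:84343088-84343287, under H3K27me3: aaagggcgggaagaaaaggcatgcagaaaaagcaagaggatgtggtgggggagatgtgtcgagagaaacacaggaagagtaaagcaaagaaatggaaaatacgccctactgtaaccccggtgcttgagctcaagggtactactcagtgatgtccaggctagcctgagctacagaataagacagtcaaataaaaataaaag
Prdm8, chr5:98599376-98599575, under H3K27me3: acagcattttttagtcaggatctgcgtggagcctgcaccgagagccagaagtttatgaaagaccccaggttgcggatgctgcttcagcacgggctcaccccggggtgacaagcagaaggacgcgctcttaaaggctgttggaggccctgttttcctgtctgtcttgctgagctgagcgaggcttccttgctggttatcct
Lmx1b, chr2:33435951-33436150, under H3K27me3: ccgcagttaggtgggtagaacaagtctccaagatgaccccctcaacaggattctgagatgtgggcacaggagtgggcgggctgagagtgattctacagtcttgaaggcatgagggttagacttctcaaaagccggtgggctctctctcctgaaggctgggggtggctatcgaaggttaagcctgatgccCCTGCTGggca
Mesp1, chr7:86942788-86942987, in promoter-reaching H3K27ac: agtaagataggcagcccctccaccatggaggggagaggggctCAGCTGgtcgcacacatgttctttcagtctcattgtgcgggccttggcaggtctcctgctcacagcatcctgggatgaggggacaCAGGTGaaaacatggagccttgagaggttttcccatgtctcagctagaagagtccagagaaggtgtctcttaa

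The 590 regions fell into 3 classes by control H3K27ac. A first class of 78 regions (13.2%, exact binomial 95% interval 10.6 to 16.2) lay inside an H3K27ac region of both controls that reached within 2.5 kb of a TSS, so that the acetylated region counted as a promoter region although the Brg1 region did not. A second class of 168 regions (28.5%, 24.9 to 32.3) had H3K27ac in exactly 1 of the 2 control replicates. The third and largest class of 344 regions (58.3%, 54.2 to 62.3) had no H3K27ac in either control list. All 3 classes follow from lists that chose the regions. As a background, 300 bp windows were placed every 20000 bp of the genome and kept where they were more than 2.5 kb from a TSS. Of these 115306 windows, 0.446% had H3K27ac in exactly 1 control list, against 28.5% of the Brg1 regions here and 2.38% (29 of 1220) of the Brg1 regions in enhancers. An H3K27ac region of at least 1 of the 4 H3K27ac lists overlapped 42.2% of the regions (249 of 590) and 1.28% of the windows.

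FLAG support came almost entirely from replicates 1 and 2, which listed 8021 and 8257 regions, whereas replicate 3 listed 192. Replicates 1 and 2 alone supported 567 of the 590 regions, replicates 1 and 3 supported 3, replicates 2 and 3 supported 2, and all 3 supported 18. Replicate 3 listed 3.90% of the 590 regions (2.49 to 5.79) and 7.30% of the Brg1 regions in enhancers. The merged FLAG regions had a median width of 225 bp, with quartiles of 175 and 325 bp and a range of 25 to 1475 bp, beside a median of 300 bp for those in enhancers. By class the median width was 325 bp in promoter-reaching H3K27ac, 250 bp with H3K27ac in 1 control and 200 bp without control H3K27ac. At the median region, 40% of the merged width was covered by 2 or more FLAG replicates.

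The limits of the rule were close for some regions. The regions nearest to the 2.5 kb limit from inside lay 2503 bp from a TSS of Greb1l, 2505 bp from one of Gm9530 and 2507 bp from one of Mir101a, and the nearest Brg1 regions left out lay 2487 bp from Ctnnd1, 2486 bp from a U6 gene and 2473 bp from 5730522E02Rik. On the side of acetylation, 5 regions had a gap of less than 100 bp to an enhancer, and 2 of the 590 abutted an acetylated region without sharing a base. In turn, 40 Brg1 regions counted as inside enhancers shared 100 bp or less with them, the smallest overlap being 25 bp.

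The regions lay nearer to genes than distal windows did. Introns held 257 (43.6%), intergenic sequence 314 (53.2%) and exons 19 (3.22%), beside 34.6%, 61.6% and 3.82% of the distal windows. The median distance to the nearest TSS was 22.0 kb, beside 35.1 kb for the windows, and 19.8% of the regions (117) lay between 2.5 and 5 kb, beside 7.86% of windows. Chromosome 11 held the most regions (49), and chromosome X held 1 of 590, beside 4 of 1220 Brg1 regions in enhancers and 237 of the 13914 enhancers (1.70%). Sequence found in many genomic copies was rare. 50% or more of the 32-base words of the central 300 bp occurred elsewhere in the genome for 1 of 590 regions (0.169%, 0.00429 to 0.941) and for 13.1% of 1154 distal windows. None of the 1220 Brg1 regions in enhancers reached this share (upper limit 0.302%).

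The class inside promoter-reaching H3K27ac held several regulators of mesoderm. Its 78 regions lay in 66 H3K27ac regions with a median width of 3938 bp, whereas all 13418 promoter H3K27ac regions of both controls had a median width of 1025 bp. The median distance to a TSS in this class was 3.20 kb, and 70 of the 78 lay within 5 kb. The region at Mesp1, the bHLH factor that starts the cardiac mesoderm program, was 1275 bp wide and lay 3.58 kb from the TSS. Its whole width was covered by H3K27ac in all 4 lists. The covering H3K27ac regions measured 2450 and 3975 bp in the controls and 2450 and 3075 bp after 4-OHT. The study describes clearly lower acetylation after Brg1 loss within a Brg1-bound enhancer upstream of Mesp1. Whether that enhancer is this region was not tested. Listed widths do not measure signal, so they cannot show whether acetylation here was kept or reduced. The Wnt3 region (800 bp, 2.56 kb from the TSS of this Wnt ligand of the primitive streak) was covered by regions of 4025 and 5525 bp in the controls and of 3950 and 3875 bp after 4-OHT. At Lefty2, a secreted Nodal inhibitor, the covering H3K27ac regions measured 4050 and 4500 bp in the controls and 3800 and 3925 bp after 4-OHT. Both 4-OHT widths were below both control widths at Wnt3 and Lefty2, and the groups overlapped at Mesp1. The same order held at Dpf1, with 2525 and 4075 bp in the controls and 400 and 1025 bp after 4-OHT. At Fgf8 and Bahcc1 the order was the reverse. The share of the 66 H3K27ac regions with either order was not computed, so these named genes do not describe the class.

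An H3K27ac region was still listed at most regions of this class after Brg1 deletion, whatever its signal. H3K27ac was listed by both 4-OHT replicates at 67 of the 78 regions (85.9%, 76.2 to 92.7), by 1 at 3 and by neither at 8. Counted over the 66 H3K27ac regions that held them, 63 (95.5%) were overlapped by a region of a 4-OHT list, beside 94.0% of all promoter H3K27ac regions. Of those 8, 2 lay near Hoxb1 and the others near Slc22a23, Tulp4, Mtch1, Cstad, Rnd3 and Pdpn. Sp5, a zinc finger target of Wnt signalling, had covering H3K27ac regions of 3875 and 4275 bp in the controls and of 3775 and 5225 bp after 4-OHT. Fgf8, a signal for cells leaving the primitive streak, had 2500 and 2575 bp in the controls and 2625 and 2650 bp after 4-OHT, both above the controls. The widest regions of the class that all 3 FLAG replicates listed were at Bahcc1, a chromatin protein gene (1300 bp, in an intron), and near Emb, which encodes the membrane glycoprotein embigin (1250 bp, intergenic), and H3K27ac covered both completely in all 4 lists.

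The class with H3K27ac in 1 control replicate was carried by a single library. Of the 168 regions, 156 were listed by control replicate 2 only and 12 by control replicate 1 only. Control replicate 2 held more regions in all (41062 against 37590), and among all distal H3K27ac regions of 1 control replicate 9555 came from replicate 2 and 5245 from replicate 1. At distal sites of a single FLAG replicate, 600 of 7417 had H3K27ac in control replicate 2 only and 32 in replicate 1 only. The acetylated region was narrow, with a median of 250 bp for replicate 2 only, against 150 bp for all such distal regions, and the widest measured 1175 bp. After 4-OHT an H3K27ac region was listed at 14 of the 156 (8.97%, 4.99 to 14.6) and at 4 of the 12, whereas 11.4% of all distal regions listed by control replicate 2 only and 66.2% of those listed by replicate 1 only were overlapped by a 4-OHT region. Whether control replicate 2 differed from replicate 1 in depth, in threshold or in cells was not tested.

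**Figure D1:**
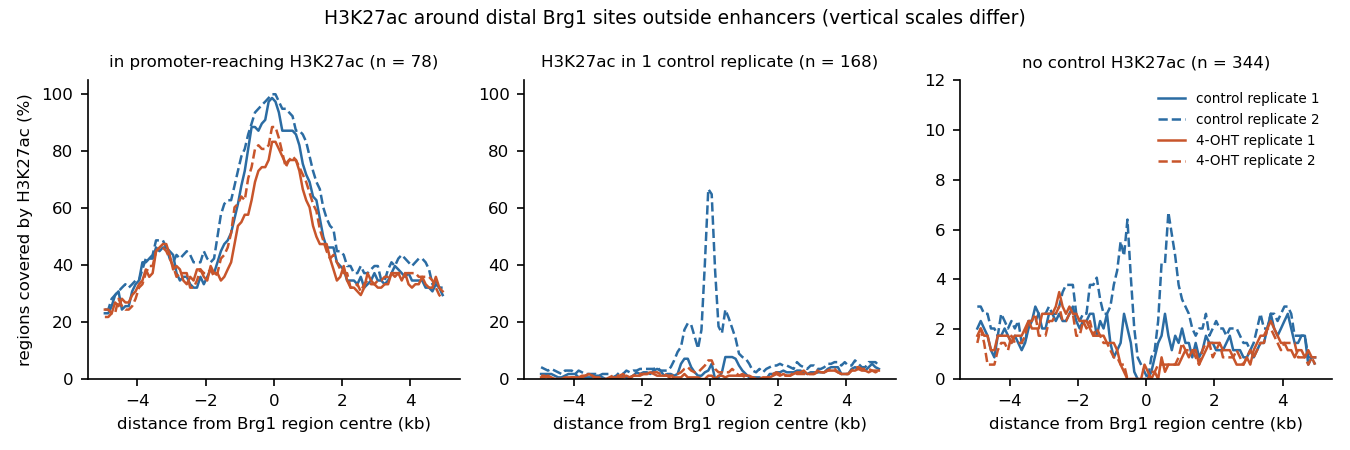
Share of regions covered by H3K27ac (vertical axis, %, scales differ) against the distance from the centre of the Brg1 region (kb, 100 bp bins) in the 3 classes, with control replicates in blue, 4-OHT replicates in orange, replicate 1 solid and replicate 2 dashed. Control replicate 2 stands above the other 3 libraries in the second class at the centre and in the third class near 0.65 kb on either side, while the classes themselves were defined by control H3K27ac.

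H3K27ac around the third class showed the same library. These 344 regions were chosen to have no control H3K27ac, so the low values at the centre follow from the rule. Between 250 and 1000 bp from the centre, however, control replicate 2 covered up to 6.69% of the regions (at 650 bp) against a mean of 2.25% between 2 and 5 kb. Control replicate 1 reached 2.62% against 1.76%, and the 4-OHT replicates reached 1.45% and 0.872% against 1.68% and 1.48%. Within 1000 bp of the region, H3K27ac was listed for 25.6% of the 344 in control replicate 2, 11% in control replicate 1 and 4.07% and 4.65% in the 4-OHT replicates, beside 2.41%, 2.09%, 1.88% and 1.60% of the distal windows. The share within 1000 bp was above that of the windows in all 4 libraries. The highest coverage at 250 to 1000 bp exceeded the mean level farther out in the controls and not in the 4-OHT replicates. A highest bin is set here against a mean, so the first tends to be larger, and the difference between conditions was not tested.

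Counted per library over all 590 regions, H3K27ac overlapped 15.3% and 39.7% in the 2 control replicates and 12.7% and 14.6% in the 2 4-OHT replicates. The control mean was 27.5% ± 17.3 (SD, n = 2) and the 4-OHT mean 13.6% ± 1.32 (SD, n = 2), and both 4-OHT values were below both control values. This comparison has no test, because control H3K27ac chose the regions, and the difference of -13.8 percentage points was -1.61 without control replicate 2. Brg1 regions in enhancers had 97.7% and 99.9% in the controls, again by choice, and 60.6% and 68.5% after 4-OHT. Few regions had H3K27ac in a 4-OHT list alone. Of the 344 regions without control H3K27ac, none had H3K27ac in both 4-OHT lists and 3 had it in 1, namely those nearest to Ak4 (150 bp covered), 3100002H09Rik (25 bp) and Gm6816 (150 bp). These 3 are 0.872% (0.18 to 2.53), beside 0.228% of windows without control H3K27ac, and 341 of the 590 regions (57.8%) were in none of the 4 lists.

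**Figure D2:**
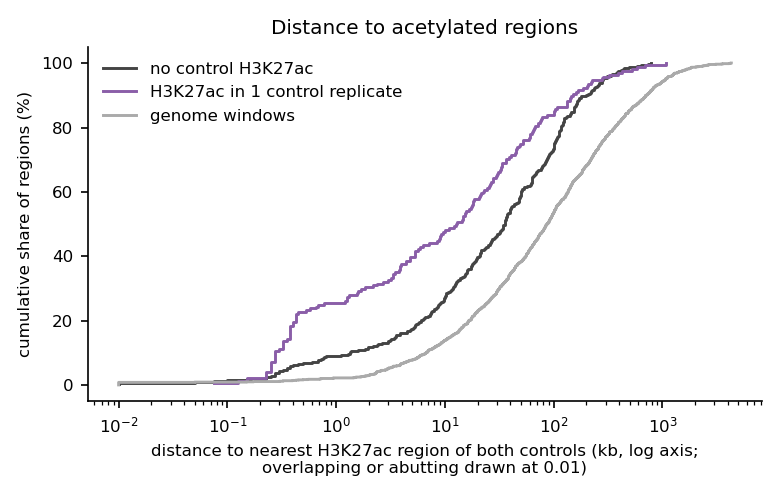
Cumulative share of regions (vertical axis, %) within a given distance (kb, log axis) of the nearest H3K27ac region of both controls, for regions without control H3K27ac, regions with H3K27ac in 1 control replicate, and every 100th distal window. The medians are 35.5, 12.8 and 89.2 kb for the first, the second and all windows, and the steps near 0.3 kb belong to Brg1 regions beside an acetylated region.

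Regions without H3K27ac were nearer to acetylated chromatin than distal sequence in general. The median distance to an H3K27ac region of both controls was 35.5 kb for the third class and 12.8 kb for the second, beside 89.2 kb for the windows. The regions also lay nearer to a TSS than the windows, and the part of this in the distance was not tested. A gap above 0 and under 500 bp was found for 38 of 168 regions of the second class (22.6%), 21 of 344 of the third (6.10%) and 0.545% of windows. At the other end, 140 of the 344 (40.7%) lay 50 kb or more from any such region.

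Wide Brg1 regions without any H3K27ac were present. The widest of all 590 lay in an intron of Pax3, a paired homeobox factor of dorsal neural tube, neural crest and muscle progenitors. It spanned chr1:78136876-78138350 (1475 bp), 55.1 kb from the TSS, 343 kb from H3K27ac of both controls and 17.6 kb from H3K27me3 of 2 or more controls, and no H3K27ac, H3K27me3 or Suz12 list overlapped it. Its centre, printed above, holds 2 E-box matches on opposite strands, separated by 1 base. A region of 1125 bp in an intron of Gm14064 lay 550 kb from the nearest coding TSS, that of Btbd3, and 494 kb from H3K27ac. A region of 800 bp in an intron of Btbd9, with the TSS of Gm9874 at 11.9 kb, was listed by FLAG replicates 2 and 3, and an intergenic region of 725 bp near Itln1, a lectin gene, was listed by all 3. Of the 18 regions listed by all 3 FLAG replicates, 12 were without control H3K27ac, 3 had it in 1 control and 3 lay in promoter-reaching H3K27ac. In the second class the widest such regions were in an exon of Dennd1b, which encodes an activator of Rab GTPases (900 bp), and in an intron of Map2k5 near Skor1, which encodes a transcriptional corepressor (800 bp), and control replicate 2 alone covered 450 and 550 bp of them.

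H3K27me3 or Suz12 directly over a region was uncommon. At least 1 of the 10 H3K27me3 and Suz12 lists overlapped 13 of the 590 regions (2.20%, 1.18 to 3.74), beside 0.345% of the distal windows, 6 of 1220 Brg1 regions in enhancers (0.492%, 0.181 to 1.07) and 163 of 7417 distal sites of a single FLAG replicate (2.20%). Of the 13, 12 belonged to the 344 regions without control H3K27ac (3.49%, 1.82 to 6.01). The share was thus above the windows and equal to that of the less well supported FLAG sites, and the remaining regions had neither mark. Those FLAG sites were not limited to sequence outside enhancers. Of the 7417, 3645 (49.1%) overlapped or abutted H3K27ac of both controls, so the 2 sets are not alike. Suz12 overlapped 6 regions in any of its 4 lists (1.02%, 0.374 to 2.20), beside 0.0824% of windows. Since one lysine carries either mark, regions chosen for lacking H3K27ac were not chosen independently of H3K27me3, and the difference from Brg1 regions in enhancers was not tested.

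The 13 regions were named after their overlap was known. The region near Lhx1, a LIM homeobox factor of the head organizer and intermediate mesoderm, lay in an intron of 1500016L03Rik and was covered by H3K27me3 over 675, 1025 and 1100 of its 1225 bp in the 3 controls and over 375, 1175 and 1100 bp after 4-OHT. All 6 libraries listed it, and the groups overlapped. Suz12 covered 0 and 50 bp of this region in the controls and 400 and 575 bp after 4-OHT. The intronic Lmx1b region, at a LIM homeobox gene of limb and brain patterning, was covered over 50, 200 and 200 of its 200 bp in the controls and over 0, 200 and 200 bp after 4-OHT. The region near Prdm8, which encodes a zinc finger repressor of the nervous system, was covered over 200, 400 and 650 of its 650 bp in the controls and over 0, 50 and 600 bp after 4-OHT. Suz12 covered 100 bp of it in 4-OHT replicate 2 only. At both Lmx1b and Prdm8 the first replicate of each condition was lowest, and the regions in those lists were also narrower (median 250 bp in each, against 350 to 425 bp in the other 4 H3K27me3 lists).

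At Hoxb1, the anterior Hox gene of the hindbrain, the region lay in promoter-reaching H3K27ac 4.40 kb from the TSS and carried both marks in the controls, with H3K27ac over 375 and 400 of its 400 bp and H3K27me3 over 0, 250 and 400 bp. After 4-OHT neither H3K27ac list covered it and H3K27me3 covered 375, 0 and 225 bp. Of the neighbouring regions, one of 375 bp had H3K27ac in 4-OHT replicate 2 only, and one of 200 bp had it in neither 4-OHT list. Near Lmx1a, the paralog of Lmx1b, no control list overlapped the 350 bp region, whereas H3K27me3 covered all of it in 4-OHT replicates 2 and 3 and Suz12 covered 175 and 350 bp. Near Fam178a, Suz12 alone was listed, over 200 and 300 bp and only in the 4-OHT replicates. The other 7 lay near Tcfap2c, Msx2, Flt1, Gadd45g, Anks1b, Grik4 and 3100002H09Rik. Of these, Tcfap2c (the AP-2 gamma factor) and Msx2 (a homeobox target of BMP signalling) also had Suz12, in 4-OHT lists only.

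**Figure D3:**
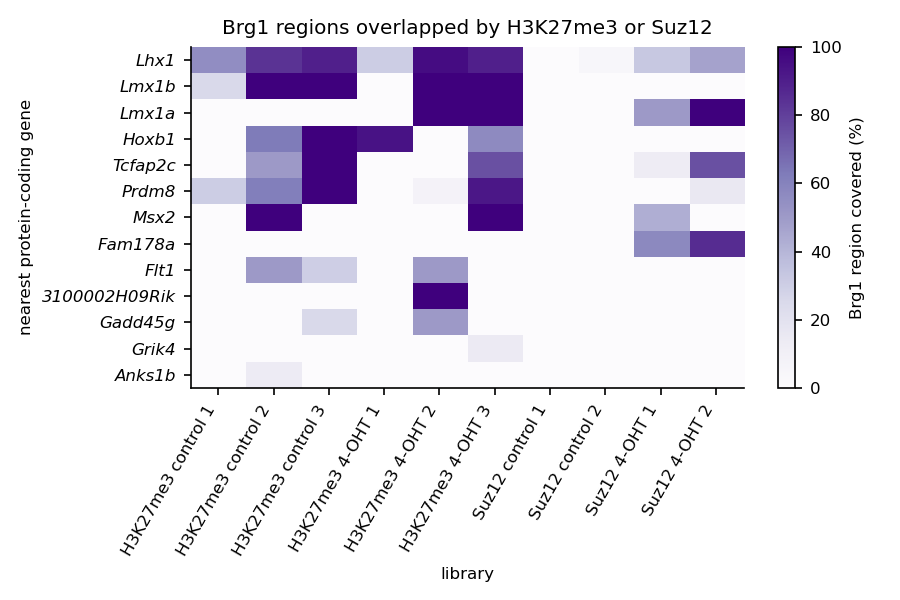
Percent of each Brg1 region covered (colour, 0 to 100%) by the regions of 6 H3K27me3 and 4 Suz12 libraries (columns) for the 13 regions with any overlap (rows, named by the nearest protein-coding gene). The Lhx1 row is filled in all 6 H3K27me3 libraries, and Suz12 appears in the 2 4-OHT columns but for a narrow overlap of the Lhx1 region in 1 control.

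The share of regions under H3K27me3 did not differ detectably between conditions. It was 0.508%, 1.36% and 1.19% in the controls (3, 8 and 7 regions) and 0.339%, 1.19% and 1.36% after 4-OHT (2, 7 and 8 regions). The means were 1.02% ± 0.448 (SD, n = 3) and 0.96% ± 0.545 (SD, n = 3), with a two-sided exact permutation p of 1 over libraries, where 0.1 is the smallest p possible. Suz12 overlapped 0 and 1 region in the controls and 5 and 5 after 4-OHT. The shares were 0% (upper limit 0.623%) and 0.169% in the controls and 0.847% in each 4-OHT library, and the groups did not overlap. The windows had 0.0633% and 0.0668% in the controls and 0.0564% and 0.0702% after 4-OHT. The distal sites of a single FLAG replicate, inside and outside enhancers, had 0.472% and 0.539% in the controls. After 4-OHT these sites had 0.674% and 0.917%, again without overlap of the groups. With 2 libraries against 2 the exact permutation p is 0.333, the smallest the design allows, so the difference cannot pass 0.05. The Suz12 lists were also longer after 4-OHT (3654 and 4016 regions against 2951 and 2913), and the part of this in the count was not tested. The difference was 0.763 percentage points, and 0.593 with the same number of widest regions from each list.

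H3K27me3 lay near more of the regions than it overlapped, which held in every set compared. Each distance includes the overlaps, so the shares can only rise with distance. H3K27me3 of 2 or more controls overlapped 1.36% of the 590 regions (8, interval 0.587 to 2.65), lay within 1000 bp of 4.41% (26, 2.90 to 6.39), within 5000 bp of 7.63% and within 10000 bp of 10.2%. The shares for Brg1 regions in enhancers were 0.246%, 0.574%, 2.13% and 3.61%, and those for the windows 0.225%, 0.382%, 1.28% and 2.49%. Distal sites of a single FLAG replicate, which include sites in enhancers, had 1.48%, 2.91%, 5.86% and 8.63%, closer to the 590 regions than either. Regions without control H3K27ac had higher shares than all these sets, 2.03%, 5.81%, 9.88% and 12.5%. Within 1000 bp, the single libraries listed 5.76%, 4.75% and 4.07% of the 590 regions in the controls and 3.56%, 3.22% and 3.90% after 4-OHT. The means were 4.86% ± 0.853 and 3.56% ± 0.339 (SD, n = 3 each), and the exact permutation p was 0.1, the smallest possible. With the same number of widest regions taken from each list the difference of -1.30 percentage points became -0.282 (exact permutation p = 0.8). Each of the 6 H3K27me3 libraries gave a share within 1000 bp of the 590 regions (3.22% to 5.76%) above that of Brg1 regions in enhancers (0.410% to 0.984%), without a test of the difference, because the choice by H3K27ac also separates the groups and regions of one list are not replicates.

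**Figure D4:**
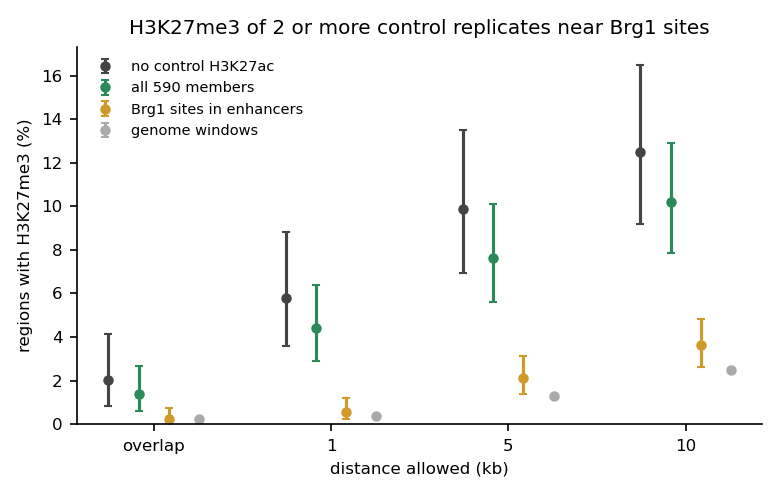
Share of regions (vertical axis, %) overlapped by, or within 1, 5 or 10 kb of, H3K27me3 called in 2 or more control replicates, with exact binomial 95% intervals that cover counting error only. Regions without control H3K27ac reach 12.5% at 10 kb, all 590 regions 10.2%, Brg1 regions in enhancers 3.61% and distal windows 2.49%.

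In the flanks, H3K27me3 was lower in every 4-OHT library. Of the 10 kb around each of the 590 regions, H3K27me3 covered on average 1.59%, 1.81% and 1.69% in the controls and 0.601%, 1.19% and 1.14% after 4-OHT. The means were 1.70% ± 0.107 (SD, n = 3) and 0.98% ± 0.328 (SD, n = 3), the groups did not overlap, and the exact permutation p was 0.1, the smallest that 3 libraries against 3 allow. With libraries paired by replicate number, the exact sign-flip p was 0.25, the smallest that 3 pairs allow. This flank measure was chosen after the data were seen. The lists themselves covered 8.38, 11 and 10 Mb in the controls and 4.74, 8.99 and 7.62 Mb after 4-OHT, a ratio of means of 0.726, beside 0.578 for the flanks, and whether the flanks differed by more than the lists was not tested. With the same number of widest regions from each list, the flank means were 1.56% ± 0.282 and 0.961% ± 0.35 (SD, n = 3 each, exact permutation p = 0.1). The lowest control (replicate 1, 1.24%) was then close to the highest 4-OHT library (replicate 2, 1.18%). For the 344 regions without control H3K27ac the flank means were 2.21% ± 0.197 and 1.05% ± 0.273 (SD, n = 3 each, exact permutation p = 0.1), and for Brg1 regions in enhancers 0.317% ± 0.0509 and 0.274% ± 0.0843 (SD, n = 3 each, exact permutation p = 0.5).

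**Figure D5:**
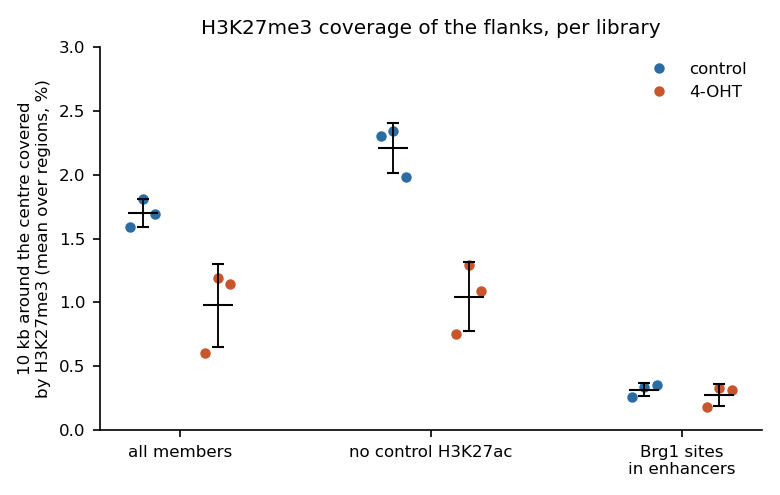
Mean percent of the 10 kb around the region centre covered by H3K27me3 (vertical axis), with 1 point per library (control blue, 4-OHT orange, replicates 1 to 3 from left to right), the mean as a bar and the SD as whiskers. All 4-OHT points lie below all control points for the 590 regions and for those without control H3K27ac, and the groups overlap for Brg1 regions in enhancers.

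Any H3K27me3 in these flanks was listed for 86 of the 590 regions (14.6%), beside 5.25% of Brg1 regions in enhancers and 2.18% of windows. At 11 of the 86 (12.8%) every 4-OHT value was below every control value, and at none was every 4-OHT value above. Among windows with any H3K27me3 in the flanks, 11.7% showed the same order of groups, so the share here is near the background. The order held at Lmx1b, with 37.5%, 82.2% and 75% of the flanks covered in the controls and 14.2%, 36.5% and 30.5% after 4-OHT. It held at Anks1b, with 70.6%, 59.0% and 53.1% in the controls and 11.2%, 3.50% and 5.00% after 4-OHT, the largest difference of means among the 11. Near Fgfr2, a receptor for fibroblast growth factors, the values were 33.2%, 43.5% and 34.5% in the controls and 0%, 9.75% and 5.00% after 4-OHT. The others lay near Prdm8, Sfrp1 (2 regions), Tal2, Uts2r, Tifab, Ada and 4933436C20Rik. The Sfrp1 gene, which encodes a secreted Wnt inhibitor, had flank values of 43.8%, 17.2% and 2.5% in the controls at its nearer region and 2.25%, 0% and 0% after 4-OHT. At Lhx1 and at the Hoxb1 regions the groups overlapped.

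Few regions lay near the genes of 9 lists of 12 to 32 genes, and longer lists can take more regions. A region was assigned to a listed gene when that gene's TSS was the nearest coding TSS within 100 kb. Signalling ligands and inhibitors had 7 regions at 6 of 32 genes (Axin2, Fgf5, Fgf8, Lefty2, Sfrp1 and Wnt3), 1.19% of the 590 regions, beside 1.39% of the Brg1 regions in enhancers and 0.134% of the windows. Mesoderm and primitive streak regulators had 5 regions at 5 of 29 genes, among them Lhx1, Meis2, Mesp1 and Sp5. This was 0.847% of the 590 regions, beside 1.89% in enhancers and 0.116% of windows. The BAF subunit list had 3 regions (0.508%, beside 0.0789% of windows), near Dpf1, Smarca2 and Smarcd3. Smarca2, which encodes Brm, the other BAF ATPase, had a region of 175 bp in an intron, 68.8 kb from its TSS and with none of the marks. The cardiac list had 2 regions (0.339%, beside 0.0364% of windows), near Myocd and Smarcd3. The receptor and migration list had 2 (0.339%, beside 0.0833%), in introns of Cdh2 and Epha4, and the neural list 1 (0.169%, beside 0.0598%), at Pax3. The pluripotency, endoderm and blood or endothelial lists had none (upper limit 0.623% of regions each), beside 0.0815%, 0.0468% and 0.0746% of windows, so that 0 of 590 cannot be told from the background. This holds for the listed genes only, and Flt1, with a region 2.66 kb from its TSS, is on none of the lists.

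A few genes were nearest to 4 or 5 regions each, and these genes were picked for their counts, with no allowance for gene length or spacing. Auts2, a gene of neuronal development, had 5 regions in its introns, 3 with H3K27ac in control replicate 2 only and 2 with none. Grik3, Ier5, Rgma and Tle4 had 4 each by nearest coding gene. At Ier5, an immediate early response gene, 2 regions of 700 and 775 bp lay in an H3K27ac domain that covered them fully in both controls and in both 4-OHT replicates, and 2 of 325 and 600 bp lay 11.8 and 12.3 kb from the TSS on its other side without H3K27ac. At Tle4, a Groucho-type corepressor, 2 regions at 28.2 and 29.0 kb from the TSS had H3K27ac in control replicate 2 only, and 2 at 576 and 604 kb had none. In all, 74 of the 590 regions (12.5%) lay within 10 kb of another, and 44 (7.46%) within 10 kb of a Brg1 region in an enhancer. No share for another set was computed beside these, so whether the regions cluster was not tested.

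Sequence composition was closer to Brg1 regions in enhancers than to the genome at large. The median GC content of the central 300 bp was 44.5% (quartiles 40.4 and 48.9), beside 46.0% in enhancers bound by Brg1 and 41.3% in the windows. Of 15 motifs searched as exact letters on both strands, the E-boxes CACCTG and CAGCTG were found in 18.5% (15.4 to 21.8) and 14.9% (12.1 to 18) of the 590 windows, beside 16.6% and 10.5% of the genome windows. The Zic letters CAGCAGG were found in 11.2% of the regions and 5.68% of the windows, in 11.9% (8.69 to 15.8) of regions without control H3K27ac, in 10.4% of Brg1 regions in enhancers and in 12.6% of all H3K27ac enhancers. The Sox letters AACAATG (4.75%, 3.18 to 6.79), the Yy1 letters AAGATGGC (1.69%, 0.816 to 3.09), the Pou octamer ATGCAAAT (2.20%, 1.18 to 3.74) and the Foxh1 letters AATCCACA (1.02%, 0.374 to 2.20) had lower shares than in the windows, which had 6.17%, 2.81%, 2.76% and 1.38%, without a test. Each window share lay inside the interval of the regions, so these shares cannot be told from the background. The CTCF letters occurred in 0.847% (0.276 to 1.97) of the 590 regions, an interval that includes the 0.460% of windows. They occurred in 1.45% (0.474 to 3.36) of regions without control H3K27ac and in 0.656% of Brg1 regions in enhancers. All H3K27ac enhancers had 0.963% and distal sites of a single FLAG replicate 1.04%. The Rest letters were found in 2 of the 590 regions (0.339%, 0.0411 to 1.22), both among the 344 without control H3K27ac (0.581%, 0.0705 to 2.08). Beside these were 0 of 1220 Brg1 regions in enhancers, 0.108% of distal sites of a single FLAG replicate and 0.00867% of windows. The letters AGGTGTGA of T-box factors were found in 1.36% (0.587 to 2.65) and those of GATA factors, AGATAAG, in 6.27% (4.45 to 8.54), beside 1.08% and 4.50% of windows, which both intervals include. GC content differs between the regions and the windows, and its part in these shares was not tested.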

How the data were processed

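The deposited lists hold chromosome, start and end of enriched regions (no other unit), called by the authors in each of 17 libraries over input with a Poisson model, at 1e-06 and a fold of at least 2 for FLAG and 1e-12 for H3K27ac, H3K27me3 and Suz12. Reads were aligned to mm9 with Bowtie, per the labels; its version is not given in the sources used here. The 11 input samples have no list here. Depth per library is unknown, and region edges are multiples of 25 bp.

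FLAG regions sharing 1 bp were merged and kept in 2 or more of 3 replicates. Annotation and sequence were GENCODE vM1 and its mm9 genome, with 86879 transcript TSSs. Regions of the 4-OHT and control lists were counted where they shared at least 1 bp with a Brg1 region, and libraries were compared by two-sided exact permutation tests. Intervals are exact binomial (Clopper-Pearson) at 95% and cover counting error only. Regions are not replicates.

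Same-numbered control and 4-OHT replicates were checked for pairing from their deviations over merged regions. By covered length the correlations for H3K27me3 were 0.932, 0.875 and 0.796, so the numbers were taken to pair these libraries, although replicates 2 and 3 also correlated across numbers (0.692 and 0.760) and correlations of presence alone were 0.178, 0.124 and 0.0501. The exact permutation p values for H3K27me3 left this pairing out. A paired form, by sign flips, was run only as the replicate block. It was not run for the share within 1000 bp or for the flanks of the other sets.

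Named regions were the 5 widest of all and of those in all 3 FLAG replicates, up to 5 under H3K27me3 of 2 or more controls (none had Suz12 in both) or with H3K27ac only in both 4-OHT lists (none), and the 4 nearest per gene list within 100 kb. Further regions were named after their values were seen, and 1 region that the rule names is not reported here. The members and lists were chosen with earlier results of these data known. Overlap, distance and permutation functions were tested on simulated data. Python 3.11.15, NumPy 2.4.6, SciPy 1.17.1, pysam 0.24.0 and Matplotlib 3.10.9 were used. Alternatives covered TSS distance, overlap rule, list length, replicate block and each library left out.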

Additional observations from a re-analysis of the deposited data

How the results depend on the processing

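Of 81 alternatives, 61 were counted as the same. For the H3K27me3 and Suz12 differences this count shows at most a kept sign, not a kept size. For H3K27ac an alternative also had to lie within the pooled SD of the libraries. That SD was wide enough to hold -26 (without control replicate 1) and -1.61 (without control replicate 2) beside -13.8. The smallest possible exact permutation p was 0.1 for H3K27me3 and 0.333 for Suz12, so no alternative could cross the threshold for p. H3K27ac had no test. Within 1 kb the H3K27me3 difference of -1.30 percentage points was counted as the same as -0.0565 over the regions. The number of regions was 344 without overlap of either control H3K27ac list, and with both remaining FLAG replicates required it was 20 without replicate 1, 19 without replicate 2 and 585 without replicate 3 (leave-one-out range, H3K27ac controls included, 19 to 589), since replicate 3 lists 192 regions. The H3K27me3 difference over the regions (4-OHT minus control) was -0.0565 percentage points and 0.169 at region midpoints (exact permutation p = 0.8), and leaving out each library gave -0.311 to 0.254, positive without control replicate 2 (0.113), control replicate 3 (0.0282) or 4-OHT replicate 1 (0.254). Its flank difference was -0.717 and ranged from -0.823 to -0.528 with each library left out. The share within 1 kb differed by -1.30 points (exact permutation p = 0.1) but by -0.282 (exact permutation p = 0.8) with the same number of widest regions per list, an alternative chosen after seeing the data. The H3K27ac difference was -13.8, -1.61 without control replicate 2 and 0.436 for regions outside every control H3K27ac list, a sign that follows from choosing regions at 0 in the controls. With the replicate block the differences were the same (-0.0565, 0.763 for Suz12, -13.8 and -0.717), with exact sign-flip p of 1, 0.5 and 0.25 for H3K27me3, Suz12 and the flanks, and no call changed because none was made. The smallest sign-flip p possible is 0.5 for Suz12 and 0.25 for H3K27me3 and the flanks. The other alternatives that moved were 12 motif, exon and distance values, among them a median distance of 0.35 kb to H3K27ac of either control. The genome sequence used carries no repeat mask, so the repeat-masked share was not run and copied 32-base words replaced it. No depth is known, so a weak region and an absent one cannot be told apart.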
